A study of Homo sapiens with 8 samples.

Results

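Solute carriers are membrane proteins that move sugars, amino acids, ions, metals, nucleosides and metabolites across the plasma membrane, the membranes of organelles and the inner mitochondrial membrane. The 94 genes described here are those with a symbol of the form SLC, family number, A, member number, and they were chosen by their measured RNA level: a mean of 5 TPM or more over the 4 input libraries (TPM is a gene's share of the transcripts in a library, corrected for transcript length). They were taken from 332 symbols of that form among 26830 genes in the table. SLC7A11, SLC30A1, SLC11A2 and SLC40A1 were left out by the rule, and 97 symbols would have reached the level with them. Of the 94 members, 19 belong to SLC25A, the mitochondrial carrier family, and 75 to 35 other families.

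The study measured RNA and ribosome occupancy in cultures labelled HEK293T, a human embryonic kidney line, that came from a single clone carrying the Cas9 nuclease. A culture received by lentivirus either a negative control guide RNA (sgNS, 1 culture) or 1 of 3 guides against METTL16, an RNA methyltransferase (sgMETTL16-1, sgMETTL16-2 and sgMETTL16-3, 1 culture each). All 4 cultures carried Cas9, grew in 10 µg/ml blasticidin and 2 µg/ml puromycin for 1 week or longer, and were treated with 100 µg/ml cycloheximide, which halts elongating ribosomes, for 5 min. From each came input RNA and ribosome footprints of 17 to 34 nt, which makes 8 libraries.

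As background, SLC families outside SLC25A mostly work at the cell surface or in organelle membranes, where some exchange solutes, some couple uptake to sodium or protons, and some let a solute run down its gradient. SLC25A proteins sit in the inner mitochondrial membrane and exchange nucleotides, phosphate and carboxylates between matrix and cytosol. Amino acid carriers such as SLC7A5, which pairs with the heavy chain SLC3A2, and SLC38A2 supply growing cells with essential and neutral amino acids. In liver, SLC2A2 (GLUT2) is the main glucose carrier of hepatocytes.

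Some facts of the libraries touch every result. Hepatocyte markers were high in cultures labelled as a kidney line: 13 of 13 reached 10 TPM in every input, and their summed level was 5742 TPM in sgNS, 9657 in sgMETTL16-1, 10300 in sgMETTL16-2 and 6336 in sgMETTL16-3. Of 14 markers listed for HEK293, 8 were under 1 TPM in all inputs. NEFL and NEFM were at 0 in input and footprints, while VIM and GATA3, listed at 0 in every input, had footprints of up to 188 and 27.8 TPM, so their input values do not show absence. KRT8 (354 to 796 TPM) and KRT18 (309 to 537 TPM) of the same list were high in input, and 6 of 6 markers of the kidney proximal tubule were under 1 TPM. Among 5 fibroblast markers 4, and among 5 blood markers 3, were under 1 TPM, while LYZ stood between 194 and 620 TPM. Input RNA of METTL16 itself stood at 5.31 TPM under sgNS, and at 4.72, 5.25 and 4.16 TPM under the other guides. The sgMETTL16-2 value was close to that of sgNS. With each library centred on its median gene the change was -0.68 (log2, SE 0.36, limma adjusted p = 0.482), which did not pass the test. This is larger than the difference between the deposited values, because the centring shifts the libraries. On TPM as deposited, 5.37% of all tested genes were likewise below sgNS in all 3 sgMETTL16 inputs, and with centring 34.2% were. Ribosome occupancy of this gene was listed as 19.8 TPM with the control guide and as 0 with each of the 3 guides against it. A listed 0 may mean too few reads as well as no ribosomes. The read depth is unknown. With 1 sgNS culture, the p-values assume that it varies as the sgMETTL16 cultures do, and culture and guide cannot be told apart.

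4 promoters are shown because the results turn on their genes: SLC2A2 and SLC38A5 were the members called different in input, and SLC25A6 and SLC25A5 are a pair of ADP/ATP carriers whose order differed between RNA and footprints. Each sequence is the 250 bases before the start site on the gene's own strand, written 5′ to 3′, from RefSeq (GRCh38.p14). Capitals mark a TATA box, a CCAAT box or a GC box on either strand. The windows are chr3:171026721-171026970 (minus strand) for SLC2A2, chrX:48470261-48470510 (minus strand) for SLC38A5, chrX:1392114-1392363 (minus strand) for SLC25A6 and chrX:119468194-119468443 (plus strand) for SLC25A5.
SLC2A2: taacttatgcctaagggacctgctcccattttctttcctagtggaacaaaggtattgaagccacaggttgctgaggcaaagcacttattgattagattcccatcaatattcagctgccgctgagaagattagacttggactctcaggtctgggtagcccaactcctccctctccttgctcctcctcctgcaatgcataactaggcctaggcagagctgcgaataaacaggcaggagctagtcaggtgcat
SLC38A5: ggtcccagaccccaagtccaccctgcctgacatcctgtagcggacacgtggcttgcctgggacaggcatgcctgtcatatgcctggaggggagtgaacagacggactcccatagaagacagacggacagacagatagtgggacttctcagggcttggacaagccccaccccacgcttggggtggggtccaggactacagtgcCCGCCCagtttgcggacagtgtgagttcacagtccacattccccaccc
SLC25A6: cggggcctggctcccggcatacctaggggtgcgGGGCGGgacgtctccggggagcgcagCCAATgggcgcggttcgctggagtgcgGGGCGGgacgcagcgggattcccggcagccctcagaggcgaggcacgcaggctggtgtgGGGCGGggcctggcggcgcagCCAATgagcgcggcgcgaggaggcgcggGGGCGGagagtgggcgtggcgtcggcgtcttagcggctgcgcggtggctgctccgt
SLC25A5: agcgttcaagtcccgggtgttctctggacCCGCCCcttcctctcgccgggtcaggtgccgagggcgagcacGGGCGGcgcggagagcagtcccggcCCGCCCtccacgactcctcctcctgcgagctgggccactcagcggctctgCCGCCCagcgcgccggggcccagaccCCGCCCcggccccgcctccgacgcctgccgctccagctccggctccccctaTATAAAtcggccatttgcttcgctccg

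The SLC2A2 window held none of these motifs and 2 CpG dinucleotides, the SLC38A5 window held 1 GC box and 7 CpG, and the SLC25A6 and SLC25A5 windows held 35 and 30 CpG. RefSeq promoter windows were found for 72 of the 94 members (114 windows). A GC box (GGGCGG) was in 72.8% of the member windows and in 54.5% of 21187 windows of protein-coding genes. The CCAAT box, named for its letters, was in 35.1% and 32.9%, and the TATA box (TATAAA) in 4.39% and 8.83%. The letters GTTAAT, part of the site of the hepatocyte factor HNF1, were in 5.26% and 5.15%, and the core of the amino acid response element, TGATGNAA, in 1.75% and 2.33%. These are matches of letters in windows and show no binding. The members were chosen by RNA level and the 21187 windows were not. Windows of other genes at the same RNA level were not compared, so the differences cannot be tied to the carriers.

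The most abundant member RNA was SLC25A6, an ADP/ATP exchanger of the inner mitochondrial membrane, at 347 TPM in sgNS and 294, 291 and 260 TPM in sgMETTL16-1, -2 and -3. SLC39A14, an importer of zinc, iron and manganese, followed at 147 TPM in sgNS and 297, 258 and 234 TPM in the sgMETTL16 inputs. SLC16A3, the lactate exporter MCT4, was at 184, 196, 180 and 203 TPM in the same order. The RNA of these members thus stood far above the selection level in every library. SLC7A5, the large neutral amino acid carrier, was at 120, 138, 156 and 152 TPM. SLC39A7, a zinc exporter of the endoplasmic reticulum, was at 138, 142, 118 and 107 TPM. SLC1A5, a glutamine carrier, was at 80.7, 126, 137 and 135 TPM. SLC2A1, the glucose carrier GLUT1, was the next of the other families, with 103 TPM in sgNS and 74.2 to 90.1 TPM in sgMETTL16.

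Within SLC25A, the level dropped quickly after SLC25A6. SLC25A1, the citrate carrier, ranged from 91.4 to 129 TPM over the 4 inputs, SLC25A3, the phosphate carrier, from 83.3 to 150 TPM, and SLC25A39, a carrier needed for mitochondrial glutathione, from 88.4 to 116 TPM. SLC25A5, the other abundant ADP/ATP carrier, was at 66.9, 93.8, 85.5 and 45.3 TPM. The carriers SLC25A10 (dicarboxylates), SLC25A11 (oxoglutarate), SLC25A23 (ATP-Mg and phosphate), SLC25A44 (branched-chain amino acids) and SLC25A38 (glycine) stood between 12.7 and 51.3 TPM. The ranges of SLC25A1, SLC25A3 and SLC25A39 overlapped, so no order among these is given.

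The leading member of each other class of substrate shows how the list is spread. Among carriers of inorganic ions it was the phosphate importer SLC20A1 (32.2 TPM in sgNS, 78.0 to 97.6 TPM in sgMETTL16), and among carriers of organic anions and cations the citrate importer SLC13A5 (37.4 and 52.5 to 74.1 TPM). The vitamin C carrier SLC23A2 led the lipid and vitamin class (27.7 and 37.1 to 49.8 TPM), and the nucleoside carrier SLC29A1 led the nucleoside class (32.4 and 41.2 to 43.8 TPM). On TPM as deposited each of these 4 was lowest in sgNS, as were 64.1% of all tested genes. With each library centred on its median gene, only SLC20A1 of the 4 stood above sgNS in all 3 sgMETTL16 inputs.

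**Figure D1:**
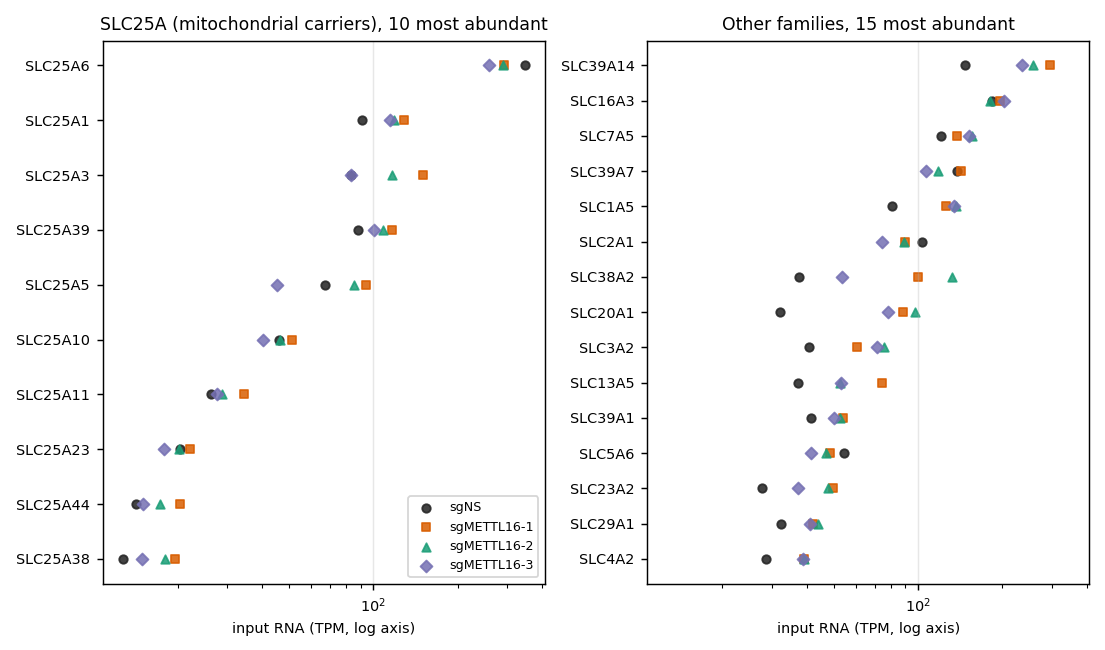
Input RNA of the 10 most abundant SLC25A members and the 15 most abundant members of other families (TPM on a log axis, 1 marker per library). SLC25A6 leads the mitochondrial carriers at 260 to 347 TPM, and SLC39A14 leads the others at 147 to 297 TPM.

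In all, 15 members had a mean of 50 TPM or more and 23 had under 10. The median mean input was 16.3 TPM for SLC25A and 15.6 TPM for the other families. The 10 most abundant members held between 45.6% and 51.3% of the summed member TPM of an input. The highest and the lowest input of a member differed by a median factor of 1.61, with 41 members under 1.5 and 25 at 2 or more, and the widest was SLC2A2 at 11.2. Just inside the level were SLC5A9 (mean 5.00 TPM), SLC37A3 (5.19) and SLC38A5 (5.20), and just outside were SLC30A7 (4.93), SLC2A10 (4.89) and SLC41A1 (4.80). Of the 332 symbols, 145 were under 1 TPM in every input and 31 of these were listed at 0.

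Because the level is a mean over both guides, some members depend on 1 group. 82 members reached 5 TPM in each of the 4 inputs, 11 were below it in sgNS, and SLC38A5 was below it in all 3 sgMETTL16 inputs. SLC10A1 and SLC22A7, carriers typical of mature hepatocytes, were under 1 TPM and are not members, while SLC13A5 and SLC38A3, also strong in liver, had at least 27.8 TPM in every input.

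Comparing the guides in input RNA, 1 member rose in sgMETTL16 and 1 fell. SLC2A2, the glucose carrier GLUT2 (chromosome 3, 170996347 to 171026720, promoter above), had 1.14 TPM in sgNS, against 9.38, 12.8 and 4.49 TPM in sgMETTL16-1, -2 and -3 (8.88 ± 4.17, SD, n = 3). All 3 sgMETTL16 cultures stood above sgNS, with sgMETTL16-3 nearest to it. Its change was 1.58 (log2, SE 0.36, limma adjusted p = 0.000945), on the scale log2(TPM + 1) with each library centred on its median gene, which understates the change of low genes. SLC38A5, a sodium-coupled carrier of glutamine and other small neutral amino acids (chromosome X, 48458544 to 48470260), was at 8.41 TPM in sgNS and 4.26, 4.60 and 3.54 TPM in sgMETTL16 (4.13 ± 0.541, SD, n = 3), with all 3 below sgNS. The change was -1.41 (log2, SE 0.36, limma adjusted p = 0.00524).

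These 2 calls are 2.13% of the 94 members, against 2.83% of the 10967 genes tested (310 genes), so the members' share is near the background. Both genes became members through the group in which they were high. Among the 82 members at the selection level in every input, 0 were called by limma, with 7 at an unadjusted p under 0.05, a level that 11.2% of all genes reached. On TPM as deposited, without centring, both calls were lost (SLC2A2 2.11, limma adjusted p = 0.259, and SLC38A5 -0.88, limma adjusted p = 0.301), and both were lost without sgMETTL16-1 (1.55, limma adjusted p = 0.186, and -1.38, limma adjusted p = 0.434). The hepatocyte marker sum given above was also lowest in sgNS. As deposited 9 of the 13 markers were lowest in sgNS, while 64.1% of all tested genes had all 3 sgMETTL16 inputs above sgNS. Among the markers, 6 had the same order of libraries as SLC2A2, and the share of all genes with this order was not counted. The median-ratio factors of the inputs, over 1838 genes above 0 in all 8 libraries, had this order too. They were 0.529 in sgNS and 0.926, 1.058 and 0.531 in sgMETTL16-1, -2 and -3. The order is therefore also that of the libraries as a whole and does not link the markers to SLC2A2. ALB, which had this order, was at 354 TPM in sgNS and 1099, 1668 and 477 TPM in sgMETTL16. On the centred scale 7 markers had a change above 0 and 6 below, from -0.43 to 0.90 (ALB), and 0 passed the test. Their part in the result was not tested.

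**Figure D2:**
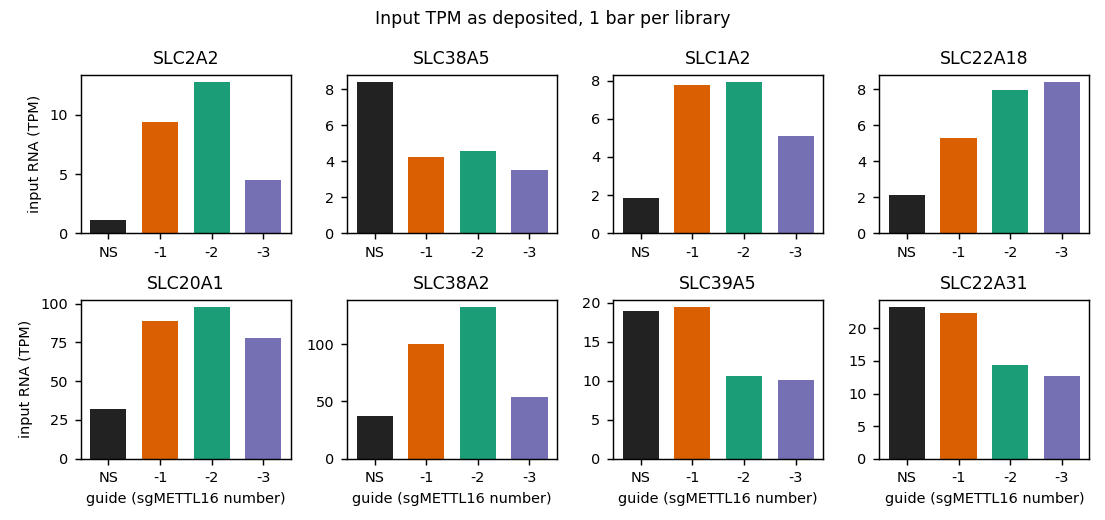
Input TPM as deposited of 8 members picked from those named for their input change, 1 bar per library (sgNS, then sgMETTL16-1, -2 and -3). They are not the 8 largest changes: SLC29A4 (-0.88), for example, is not shown and SLC38A2 (0.70) is. Each panel has its own axis from 0. SLC2A2 had 1.14 TPM in sgNS, against 4.49 to 12.8 TPM in sgMETTL16, and SLC38A5 had 8.41, against 3.54 to 4.60 TPM.

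The other members with the strongest change in the same direction in all 3 sgMETTL16 cultures did not pass the test. SLC1A2, a glutamate carrier, was at 1.84 TPM in sgNS and 7.77, 7.92 and 5.09 TPM in sgMETTL16 (a change of 0.93 in log2, SE 0.36, limma adjusted p = 0.193). SLC20A1 was at 32.2 TPM and 88.7, 97.6 and 78.0 TPM (0.89, SE 0.41, limma adjusted p = 0.339). SLC38A2, a sodium-coupled carrier of neutral amino acids that cells use when these are scarce, was at 37.5 TPM and 99.8, 132 and 53.4 TPM (0.70, SE 0.41, limma adjusted p = 0.565). For these 3 all sgMETTL16 inputs lie above sgNS on the deposited scale, as they do for 64.1% of all tested genes. SLC1A2, like SLC22A18 below, was under 5 TPM in sgNS and became a member through the sgMETTL16 inputs. For SLC38A2 the sgMETTL16-3 value lies closest to sgNS. The related SLC38A1 (0.52), SLC22A18 (0.84, a gene with an antisense partner whose reads may be mixed with its own), the ATP-Mg and phosphate carrier SLC25A25 (0.66) and SLC4A11 (0.53) complete the upper end, with limma adjusted p from 0.283 to 0.716.

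At the lower end, SLC39A5, a zinc importer, was at 19.0 TPM in sgNS and 19.4, 10.7 and 10.1 TPM in sgMETTL16 (a change of -1.06 in log2, SE 0.38, limma adjusted p = 0.127). SLC22A31 was at 23.3 TPM and 22.3, 14.4 and 12.7 TPM (-1.04, SE 0.38, limma adjusted p = 0.149). In both, sgMETTL16-1 was close to sgNS as deposited and sgMETTL16-2 and -3 were lower. The monoamine carrier SLC29A4 (-0.88), SLC2A1 (-0.82), the biotin and pantothenate carrier SLC5A6 (-0.78), the folate carrier SLC19A1 (-0.76) and the glucose carrier SLC2A3 (-0.74, which has a close copy in SLC2A14, so that its reads may be split) had limma adjusted p from 0.283 to 0.453. Without sgMETTL16-3, 10 members were called (10.6%, against 5.96% of all genes tested), among them SLC39A5, SLC22A31, SLC29A4, SLC2A1, SLC5A6 and SLC19A1 as lower and SLC38A2 as higher. With a filter of 5 TPM SLC39A5 and SLC22A31 were called (limma adjusted p = 0.0306 and 0.0362), which makes 4.26% of members against 6.09% of genes. With quantile normalization SLC20A1 and SLC38A2 were called (limma adjusted p = 0.00495 and 0.0294), which makes 4.26% against 4.85%.

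Over all members the centred log2 change had a median of -0.17 (SLC25A -0.17, other families -0.16), against -0.06 for all tested genes. 67 members were below 0 (71.3%, against 57.0% of all genes) and 27 above. In SLC25A 17 of 19 were below 0, the 2 above being SLC25A25 and SLC25A22 (the glutamate carrier). All 3 sgMETTL16 cultures stood above sgNS for 16 members (17.0%), against 23.4% of all genes, and below sgNS for 33 members (35.1%), against 34.2%. The direction rests on the scaling and the filter. With no filter on low genes, which moves the median gene, the median was -0.03 for members and -0.21 for all genes, with 54.3% of members and 66.0% of genes below 0. On TPM as deposited the median was 0.36 for members and 0.46 for all genes, all 3 cultures stood above sgNS for 60 members (63.8%) against 64.1% of all genes, and below for 7 (7.45%) against 5.37%.

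By class, the carriers of sugars and monocarboxylates had the lowest median, -0.45. All 3 cultures were below sgNS in 9 of 14 as centred (64.3%, against 34.2% of all genes). As deposited they were below in 3 of 14 (21.4%, against 5.37%). The class is pointed out because its median was the lowest. On the centred scale SLC2A1, SLC2A3, SLC2A6, SLC16A3, SLC16A13, SLC37A4, SLC5A6, SLC5A9 and SLC50A1 made up the 9, and SLC2A2 was the class's one called member, in the other direction. Amino acid carriers (20 members) had a median of -0.18, metal carriers (13) -0.18, carriers of inorganic ions (10) -0.17, of nucleosides and nucleotide sugars (4) -0.17, of organic anions and cations (8) -0.04, and of lipids, vitamins and other solutes (6) 0.12. Classes follow the family, not the substrate of each member, and none was tested as a group.

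**Figure D3:**
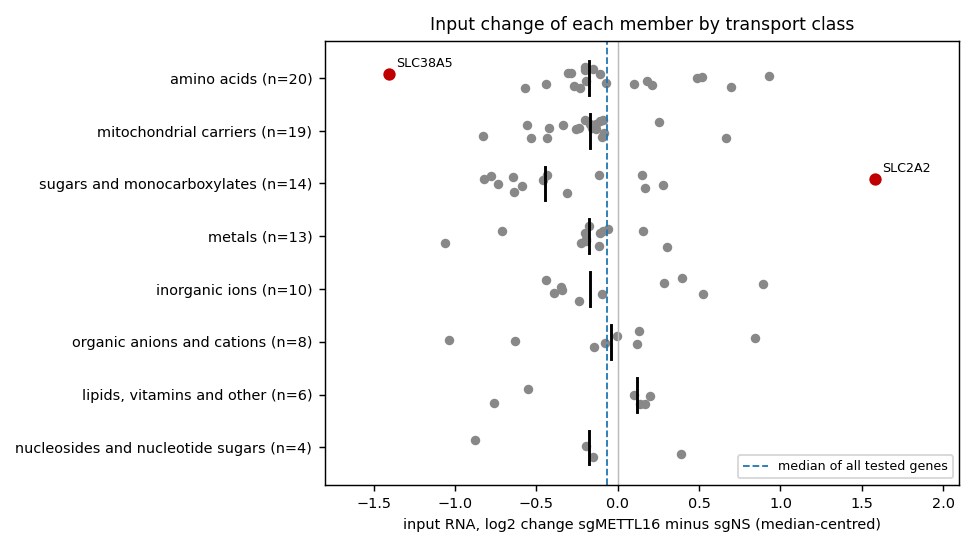
Input log2 change of each of the 94 members, sgMETTL16 minus sgNS, centred on the median gene of each library, by class of transport. Black bars are class medians, the dashed line is the median of all tested genes (-0.06), and red points are the called members SLC2A2 (1.58) and SLC38A5 (-1.41).

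Cultures differed among themselves. The median member change from sgNS was -0.14, -0.36 and 0.04 for sgMETTL16-1, -2 and -3, and for all genes it was -0.08, -0.13 and -0.03. sgMETTL16-2 was the lowest of the 4 inputs in 62 members (66.0%), against 44.4% of all tested genes. sgMETTL16-3 was the sgMETTL16 culture nearest to sgNS for 46 members (48.9%), against 42.4%. The members share libraries, so these shares are descriptions of 4 libraries.

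Lists of other membrane transporters were tested in the same input fit. Of the ABC transporters 24 were tested, with a median change of 0.05 and 2 at an unadjusted p under 0.05. Of the ion pump ATPases 24 were tested, with a median of 0.06 and 1 at that level. Of the SLCO organic anion carriers 3 were tested, with a median of -0.56 and 0 at that level, and of SLC symbols with other family letters 18, with a median of -0.02 and 0 at that level. The 77 SLC genes between 1 and 5 TPM had a median of -0.10 and 8 at that level. No gene of these 5 lists passed the adjusted threshold of limma.

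Footprints of the members were sparse. On simulated data with the spread of the footprint libraries the fits found almost none of the changes put in, so a footprint or translation efficiency difference that misses the threshold does not show that levels were alike. A footprint value above 0 was found for 40 members in sgNS and for 55, 66 and 31 in sgMETTL16-1, -2 and -3 (42.6%, 58.5%, 70.2% and 33.0%), against 46.3%, 58.1%, 67.1% and 44.1% of the 6277 genes with the same input level. 18 members were above 0 in all 4 footprint libraries and 12 in none. The 10 carriers of inorganic ions were detected 7, 6, 7 and 0 times in the same order, so that sgMETTL16-3 listed all of them at 0. Between the sgMETTL16-1 and sgMETTL16-2 footprints, 14 of the 46 members above 0 in both shared 1 ratio, 1.47 within 0.02 on the natural log scale, as did 25.7% of 4260 genes. Where a value is listed at 0, absent ribosomes and too few reads cannot be told apart.

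The highest mean footprint values were those of SLC38A2, SLC25A3, SLC25A5 and SLC39A14, in an order that differed between libraries. SLC38A2 had 179 TPM of footprints in sgNS and 372, 385 and 101 TPM in sgMETTL16. SLC25A3 had 344, 254, 352 and 85.7 TPM, and SLC25A5 had 343, 204, 126 and 21.4 TPM. On TPM as deposited the lowest value of each of these 3 was in sgMETTL16-3. That library had the smallest footprint scaling factor, 0.651, against 1.364, 1.123 and 1.104 in sgNS, sgMETTL16-1 and sgMETTL16-2. After scaling, sgNS was the lowest for SLC38A2. None of the differences passed the test, which used scaled values (limma adjusted p of 0.695, 0.796 and 0.695). SLC39A14 had 66.1 TPM in sgNS and 227, 218 and 181 TPM in sgMETTL16 (209 ± 24.1, SD, n = 3). Its 181 TPM was the highest value of any member in sgMETTL16-3. All 3 values lay above the 1 sgNS value, and the share of all genes with this order in footprints was not counted. Of all tested genes, 60.2% had a footprint change above 0. After scaling the change was 2.18 (log2, SE 0.36, limma adjusted p = 0.133), and its input changed by 0.30 (limma adjusted p = 0.923). SLC2A2 had 16.6 TPM and 61.4, 42.6 and 24.8 TPM (1.75, SE 0.43, limma adjusted p = 0.276), with sgMETTL16-3 nearest to sgNS on TPM as deposited. With centring in place of median-ratio scaling, the changes of SLC39A14, SLC2A2 and SLC38A2 turned to -0.49, -0.90 and -1.68, none past the test.

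Of the 82 members that could be tested in footprints, 3 were called, all lower in sgMETTL16 (3.66%, against 6.54% of 9297 genes). SLC12A9 (sgNS 17.2 TPM), SLC25A42, the mitochondrial carrier of coenzyme A (17.7 TPM), and SLC5A9, a sodium-coupled mannose and glucose carrier (17.9 TPM), had each a value of 0 in the footprints of all 3 sgMETTL16 cultures (limma adjusted p = 0.0329 for each). Such a pattern was the usual form of a call: of the 608 genes called, 543 were listed at 0 in all sgMETTL16 libraries, 64 were at 0 in sgNS and 1 was above 0 in both groups. For the 3 called members, equal values of 0 leave no spread between the sgMETTL16 cultures, and sgNS is 1 culture. Their p-values thus measure no spread and do not show a difference in ribosome occupancy. A filter of 5 TPM removed all 3 members from the test. With any 1 sgMETTL16 culture left out, or with centring in place of median-ratio scaling, 0 genes were called by limma.

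Translation efficiency, the footprint to input ratio compared between guides, differed in 0 of 82 members by limma, against 0.812% of 8002 genes (65 genes, 47 of them at 0 in the sgNS footprints and 18 at 0 in those of sgMETTL16). An unadjusted p under 0.05 was found for 6 members (7.32%), against 11.7% of all genes. The lowest member p among genes with footprints in all 4 libraries was that of SLC39A14, with a log2 change of 1.91 (SE 0.57, limma adjusted p = 0.176). Its footprint to input ratio was 0.450 in sgNS and 0.763, 0.845 and 0.773 in the sgMETTL16 cultures. SLC2A2 had a change of 0.01 (SE 0.89, limma adjusted p = 0.996), with ratios of 14.6 in sgNS and 6.54, 3.33 and 5.53 in sgMETTL16 on TPM as deposited, where the change was -0.88. SLC38A2 had 0.32 (SE 0.84, limma adjusted p = 0.842). With the culture as a replicate block 0 genes and 0 members were called, and with a pseudocount of 0.1 TPM 724 genes (9.05%) and 3 members (3.66%; SLC39A4, SLC6A6 and SLC5A9).

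Over all 4 cultures, whichever the guide, most members were lower in footprints than in input. After median-ratio scaling 62 of the 94 were lower (66.0%, against 52.8% of the 6277 genes of the same input level) and 1 was higher (1.06%, against 2.72%). The scaling used the 1838 genes above 0 in all 8 libraries, so a difference of 0 means the level of genes with footprints everywhere. On that scale 94.7% of members and 89.1% of the 6277 genes were below 0, against 91.5% and 80.5% as deposited. Of the 62, 47 were listed at 0 in 2 or more footprint libraries. The 9 that were above 0 in all 4 were SLC25A6, SLC7A5, SLC39A7, SLC1A5, SLC2A1, SLC13A5, SLC23A2, SLC43A1 and SLC7A1. SLC2A1 lost its call on TPM as deposited and without sgNS, sgMETTL16-1 or sgMETTL16-3 (limma adjusted p from 0.0727 to 0.151). On TPM as deposited 28 members were lower (29.8%, against 27.6% of genes), so the members' share was then near the background. At a pseudocount of 0.1 TPM 37 were lower (39.4%, against 32.9%). With 1 culture left out, 30 were lower without sgMETTL16-3 (31.9%, against 27.7%), 31 without sgNS (33.3%, against 28.9%), 38 without sgMETTL16-1 (43.2%, against 35.5%) and 45 of 90 without sgMETTL16-2 (against 39.9% of genes). The member higher in footprints was SLC2A2 (log2 difference 1.57, SE 0.35, limma adjusted p = 0.0181), which lost the call without sgNS (limma adjusted p = 0.0596), without sgMETTL16-1 (limma adjusted p = 0.0658) and without pairing by culture (limma adjusted p = 0.0512).

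**Figure D4:**
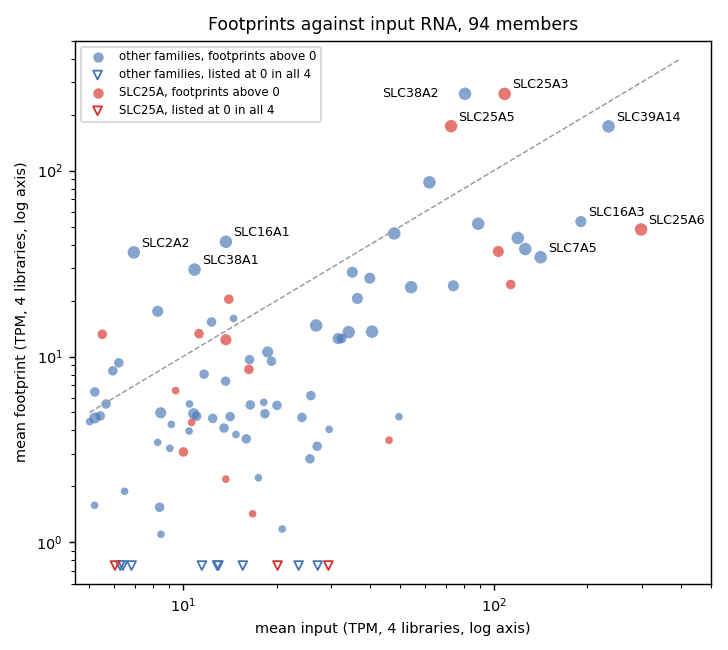
Mean footprint TPM against mean input TPM of the 94 members over 4 libraries each (log axes), with larger circles for members above 0 in more footprint libraries and open triangles, set at the lower edge, for the 12 listed at 0 in all 4. The dashed line marks equal TPM, and SLC25A6 lies below it while SLC25A3, SLC25A5 and SLC38A2 lie above.

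On TPM as deposited, 5 members had more footprints than input in all 4 cultures (5.32%, against 8.92% of the 6277 genes): SLC25A3, SLC38A2, SLC38A1, SLC2A2 and SLC16A1, the monocarboxylate carrier MCT1. Their lowest ratio in any culture was 1.03, for SLC25A3 in sgMETTL16-3. Of the 18 members with footprints in all 4 libraries, 10 had a ratio above 1 in no culture. The partners of the large neutral amino acid carrier differed. SLC7A5 stood at ratios of 0.624, 0.212, 0.0884 and 0.123 in sgNS and sgMETTL16-1, -2 and -3, while SLC3A2 stood above 1 in sgNS, sgMETTL16-1 and sgMETTL16-2 (2.24 in the last) and at 0.515 in sgMETTL16-3.

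The ADP/ATP carriers stood in opposite order in RNA and footprints. SLC25A6 RNA exceeded SLC25A5 RNA 5.18-fold in sgNS and 3.13-, 3.41- and 5.73-fold in sgMETTL16-1, -2 and -3. In footprints the same ratio was 0.114, 0.101, 0.908 and 0.908, so that SLC25A5 was the higher in all 4 libraries. The footprints of SLC25A6 were 39.0, 20.6, 114 and 19.4 TPM, at 0.112, 0.0700, 0.392 and 0.0749 of its input. SLC25A5 and SLC25A6 are similar in sequence and have processed copies in the genome, so the split of short footprint reads between them is uncertain. Their transcript sequences were not compared here.

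**Figure D5:**
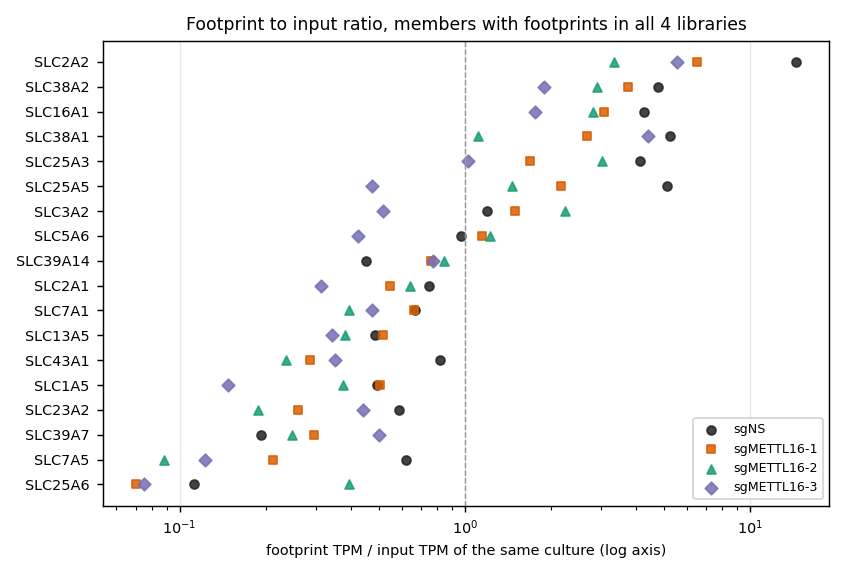
Footprint TPM divided by input TPM of the same culture (log axis) for the 18 members with footprints in all 4 libraries, 1 marker per culture. SLC2A2 lies highest (3.33 to 14.6) and SLC25A6 lowest (0.0700 to 0.392), and the dashed line marks a ratio of 1.

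Summed over the members, footprint TPM was 0.760 of input TPM in sgNS and 0.661, 0.733 and 0.293 in sgMETTL16-1, -2 and -3, against 1.19, 0.989, 1.03 and 0.529 for 5854 protein-coding genes of the same input level. The members were below the protein-coding genes in each of the 4 cultures, and sgMETTL16-3 was lowest for both. For all 6277 genes of that input level, coding or not, the ratios were 0.668, 0.691, 0.720 and 0.529. Against these the members were higher in sgNS and sgMETTL16-2 and lower in sgMETTL16-1 and sgMETTL16-3. By class, the amino acid carriers were at 0.900, 1.04, 0.936 and 0.364, and the metal carriers at 0.294, 0.475, 0.660 and 0.516. SLC39A14 held 227 of 317, 218 of 379 and 181 of 267 TPM of the metal carriers' footprints in sgMETTL16, and without it the ratios were 0.217, 0.244, 0.509 and 0.303.

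SLC25A was set against the other families by summed TPM in each library. The summed SLC25A input was 0.472 of the sum of the other families in sgNS and 0.405, 0.386 and 0.365 in sgMETTL16 (0.386 ± 0.0201, SD, n = 3). In footprints it was 0.794 in sgNS and 0.400, 0.422 and 0.261 in sgMETTL16 (0.361 ± 0.0875, SD, n = 3). sgNS was highest in both, with an exact permutation p of 0.25 (two-sided), the smallest that 1 culture against 3 allows. Without SLC25A3, SLC25A5 and SLC25A6, chosen for their high values, the ratio was 0.201 in sgNS and 0.188 to 0.196 in sgMETTL16 inputs, and 0.158 and 0.0799 to 0.120 in footprints. In footprints, 8 to 11 of 19 SLC25A members were above 0 in sgNS, sgMETTL16-1 and sgMETTL16-2 and 6 in sgMETTL16-3, and 3 (SLC25A11, SLC25A23 and SLC25A28) were at 0 in all 4.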

How the data were processed

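The input and footprint libraries of 4 cultures were analysed. The deposited values are TPM for gene symbols, 1 column per library, which the authors made with STAR and RSEM 1.2.31 on GRCh38, per the submitters' processing notes (no STAR version is given). TPM adds up to the same total in every library, so it gives shares and not amounts, and the depth is unknown. Ribosomal RNA was depleted and reads were 51 bases, single end, per the labels' protocols.

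All fits were made on log2(TPM + 1) with limma 3.58.1 under R 4.3.3, with an intensity trend and Benjamini-Hochberg adjustment over all genes tested (threshold 0.05). Input libraries were centred on the median gene, for genes with a mean of 1 TPM or more. Footprints and translation efficiency (an interaction of guide with library kind, over 8 libraries) were scaled by the median ratio over genes above 0 in every library (1870 genes for footprints), with the same filter. Footprints were also set against input within each culture, for genes with a mean input of 5 TPM or more. The prior degrees of freedom of the input fit were Inf, so the spread assumed for a gene came from genes of like level. The fitting functions were tested on simulated data, where they found most changes at a small spread and, at the spread of the footprint libraries, almost none of those in footprints or translation efficiency. Nothing says that cultures were repeated, so p-values measure the spread between cultures with different guides.

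Input and footprint libraries with the same title prefix were taken as the same culture. Their deviations from the sgMETTL16 means correlated at 0.113, -0.017 and 0.118 over 884 genes. Between libraries of different numbers the correlations ran from -0.182 to 0.106, the highest for the sgMETTL16-2 input with the sgMETTL16-1 footprints.

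Members and lists were chosen with earlier results of these data known. Members named with a test were those past a threshold, the 8 highest and 8 lowest by moderated statistic in input among those with the same direction in all 3 sgMETTL16 cultures, and up to 8 with the largest footprint values above 0 in all 4 libraries. The members called in input were also followed in the other comparisons, and members listed with a changed setting or in a count of 5 or fewer were named after their values were seen. Gene names and places came from RefSeq (GRCh38.p14), which matched all 94 members. Alternatives were other pseudocounts, filters, scalings, fits with and without a replicate block, and each culture left out. Counts and reads were not used here.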

Additional observations from a re-analysis of the deposited data

How the results depend on the processing

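Leaving out each sgMETTL16 culture in turn gave 0 to 10 input members and 110 to 664 genes called, 33 to 58 members with every remaining sgMETTL16 culture below sgNS, and 0 footprint members, 0 footprint genes and 0 translation efficiency genes. Leaving out each of the 4 cultures gave 30 to 45 members and 1793 to 2350 genes lower in footprints than in input, and 0 to 1 members and 74 to 119 genes higher. On TPM as deposited, input called 0 members and 23 genes, with 7 members below and 60 above sgNS in every culture and a median of 0.36. No filter gave 26 members above. A filter of 5 TPM or quantile normalization gave 4 input members, the latter with 532 genes. In footprints, a filter of 5 TPM gave 0 members and 335 genes, and centring gave 0 members and 0 genes. Translation efficiency called 3 members and 724 genes at a pseudocount of 0.1 TPM, 341 genes at 0.5 TPM, 14 as deposited, 472 with no filter, 144 with a filter of 5 TPM and 0 with centring. Footprints were lower than input in 37 members and 2062 genes and higher in 108 genes at a pseudocount of 0.1 TPM. As deposited these were 28 members and 1730 genes lower and 3 members and 290 genes higher, and with a filter of 1 TPM 5113 genes lower and 355 higher.

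With the culture as a replicate block, translation efficiency called 0 genes and 0 members, against 65 and 0. With no replicate block, 0 members were higher in footprints than in input, against 1, and 70 lower, against 62. The numbers mark the same culture by title, though the correlation of 1 of the 3 pairs was under 0.1. The sgMETTL16-2 input reached 0.106 with the sgMETTL16-1 footprints, so these correlations do not establish the pairing.

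Single members changed direction in footprints as deposited (SLC25A6 -0.11, SLC5A6 -0.44) and with centring (SLC25A6 -2.24, SLC2A2 -0.90, SLC38A2 -1.68, SLC39A14 -0.49, SLC3A2 -1.38, SLC5A6 -2.57). In translation efficiency SLC2A2 was at -0.38 and -0.18 with pseudocounts of 0.1 and 0.5 TPM, and as deposited SLC2A1 was at -0.63, SLC2A2 at -0.88, SLC38A2 at -0.78 and SLC5A6 at -0.19, while SLC25A3 was at 0.0517 with centring. In footprints against input, SLC25A5 was at 0.74 and SLC3A2 at 0.26 as deposited. With a culture left out, SLC25A3 ranged from -0.45 to 0.22 and SLC25A6 from -0.18 to 0.98 in footprints, SLC25A3 from -0.42 to 0.31 and SLC2A2 from -0.0687 to 0.41 in translation efficiency, and SLC25A3 from -0.17 to 0.45 and SLC25A5 from -0.41 to 0.33 in footprints against input. None of these changes of direction passed a test, and the cause was not tested. The unknown depth and the many values listed at 0 limit all footprint results.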
